A study of Homo sapiens with 27 samples.

Results

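The comparison described here is that of 6 REH libraries treated with an antisense oligonucleotide against lnc-TIMM21-5 with 5 control libraries, matched by replicate number. It used 11 of the 27 RNA sequencing libraries of the series. REH is a human cell line established from B-cell precursor acute lymphoblastic leukemia that carries the ETV6/RUNX1 fusion, and every library came from this line 72 h after the start of treatment. Locked nucleic acid (LNA) GapmeRs were given at 10 µM by gymnosis, that is by passive uptake with no transfection reagent. The groups were lnc-TIMM21-5 LNA GapmeR1 (n = 3), lnc-TIMM21-5 LNA GapmeR2 (n = 3), a non-targeting LNA GapmeR (NTC, n = 3) and medium with no oligonucleotide (n = 2). According to the study's methods the replicates of an experiment were run on different days, so each GapmeR library was set against the controls with its own replicate number. Replicate 3 had an NTC control and no medium control. The question was which genes both GapmeRs moved in the same direction on each day when their lncRNA was knocked down.

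A GapmeR has a central stretch of DNA between LNA ends, and the duplex it forms with a complementary RNA is cut by RNase H, an enzyme active in the nucleus as well as in the cytoplasm. Nuclear RNA, introns included, can therefore be a target, and unintended RNAs that hold a similar stretch can be cut as well. lnc-TIMM21-5 is a long non-coding RNA that the paper describes as adjacent and bidirectional to NETO1. It is taken here to be the annotated gene NETO1-DT, which starts beside NETO1, runs away from it and matches both GapmeRs exactly. Long non-coding RNAs of this kind can act on neighbouring genes or at other places in the cell, or can have no measurable role in a given cell line.

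The oligonucleotides are shown because the pooled comparison treats both GapmeRs as one knockdown, and their sequences are not independent. Each is written 5′ to 3′, and the capitals mark the run of 8 bases that both lnc-TIMM21-5 GapmeRs contain.
GapmeR1: AATTTTGCatttggta
GapmeR2: gtcactttAATTTTGC
NTC: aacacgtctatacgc
GapmeR1 carries this run at its 5′ end, in positions 1 to 8 of 16, and GapmeR2 at its 3′ end, in positions 9 to 16 of 16. Their sites therefore overlap in the target, in a stretch of 24 bases at chr18:72881263-72881286 (hg38, plus strand), where the capitals mark the shared run.
NETO1-DT site: taccaaatGCAAAATTaaagtgac
The stretch lies in the last of the 4 exon blocks of NETO1-DT and ends 118 bases before the annotated end of the gene. The GC content was 25% for GapmeR1, 31.2% for GapmeR2 and 46.7% for the NTC.

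The 11 libraries held 16028895 to 22750945 reads assigned to genes on the sense strand, and the 6 GapmeR libraries were the deeper ones on average, with 18776820 or more each. Between 74.0% and 76.2% of reads were assigned to a gene. Of 12 B-cell precursor markers, 11 had at least 2640 counts in every library, and VPREB1, a component of the surrogate light chain, was at 0 in every library. Of 5 T cell genes, CD3D, CD3G and CD2 were at 0 throughout, CD3E had 3 to 11 counts and TRAC 139 to 456. Of 5 myeloid genes, MPO had 1527 to 3076 counts, ITGAM 55 to 129, CSF1R 6 to 34, CD14 3 to 13 and LYZ 0 to 6. Among 4 stromal and epithelial genes COL1A1 had 144 to 316 counts. The days differed more than the treatments: 34.7% of the variance lay along the first principal component, and replicate number accounted for 88.8% of the spread along it. All 3 libraries of replicate 3 lay between 23.08 and 25.33 on that component, and no other library was above 0.48.

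lnc-TIMM21-5 was reduced by both GapmeRs on each day. In CPM, the read count of a gene relative to the total of its library, scaled for library composition, NETO1-DT (ENSG00000263958, chr18:72868388-72881404) was at 1.08 and 2.19 in medium and at 1.82, 1.69 and 1.09 in NTC, in order of replicate number. It was at 0.107, 0.503 and 0.257 with GapmeR1 and at 0.340, 0.235 and 0.0454 with GapmeR2. Every GapmeR library was below every control library. These levels rest on few reads, 20 to 40 counts per control library and 1 to 10 per GapmeR library. The pooled log2 fold change was -2.55 (standard error, SE, 0.285, edgeR adjusted p = 3.14e-07), or 17.0% of the control level. GapmeR1 alone gave -2.33 and GapmeR2 alone -2.82. An exact permutation of the labels within each replicate number (two-sided, 108 arrangements) gave p = 0.00926, the smallest value it can give.

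The genes around the lncRNA were measured next. Of 44 annotated genes within 2 Mb of NETO1-DT, itself included, 11 had enough reads to be tested. NETO1-DT was the only one of them that passed in the pooled comparison with the controls. NETO1, a brain-enriched accessory protein of glutamate receptors whose start lies 0.2 kb from that of the lncRNA, differed by a log2 fold change of 0.03 (SE 0.05, adjusted p = 0.905). TIMM21, a subunit of the mitochondrial inner membrane import machinery for which the lncRNA is named, lies 1267 kb away and differed by 0.02 (SE 0.05, adjusted p = 0.935). NETO1 was above its day's controls in 3 of the 6 GapmeR libraries and TIMM21 in 4 of 6. ZNF407, a zinc finger gene 1717 kb away, was below its day's controls in all 6 libraries, with a log2 fold change of -0.13 (SE 0.06), and did not pass after adjustment (adjusted p = 0.296).

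**Figure D1:**
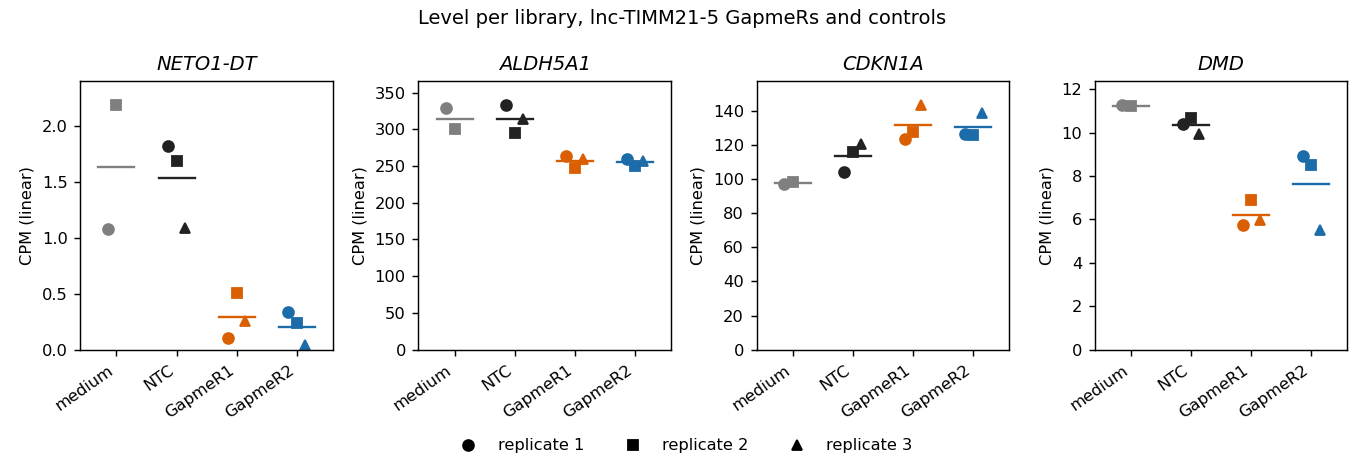
Level of 4 genes in each of the 11 libraries, in CPM on a linear axis from 0, by group. Points are libraries, their shape gives the replicate number, and lines are group means. NETO1-DT, ALDH5A1 and DMD are lower and CDKN1A is higher in all 6 GapmeR libraries than in all 5 controls.

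Across the transcriptome the shifts were small. With replicate number as a block, 199 of 15029 genes passed at an adjusted p under 0.05 (1.32% of genes tested), 110 of them higher (0.732%) and 89 lower (0.592%). The median log2 fold change was 0.25 among the higher genes and -0.21 among the lower ones, against 0.00 over all genes tested. Only 16 of the higher and 7 of the lower genes differed by more than 0.5 on the log2 scale. Without the block a single gene passed, NETO1-DT itself. Leaving out a single library lowered the count to as few as 84: it was 84 without medium replicate 1, 129 without medium replicate 2, 98 without NTC replicate 3, and 99 and 109 without GapmeR1 replicates 2 and 3.

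Of the 199 genes, 186 lay on the same side of their day's controls in all 6 GapmeR libraries (1.24% of genes tested), 102 higher and 84 lower, and the remaining 13 did so in 5 of 6. The test already used these differences, so this count describes the genes and adds no support; over all genes tested, 11.8% had a single sign in all 6. The median difference of the higher genes ranged from 0.19 to 0.34 over the 6 libraries, and that of the lower genes from -0.25 to -0.17. The genes were chosen on these same libraries, so the medians also describe them and add no support. The last genes inside the threshold were CCNE2 and SELENOK (adjusted p = 0.0495 for each), and the first outside were MYOCD and SETD1B (0.0502 and 0.0512).

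A stricter view asks for no overlap at all between the 6 GapmeR and the 5 control libraries, whatever the day. This held for 93 genes (0.619% of genes tested), of which 12 belonged to the higher and 20 to the lower genes. With the 3 NTC libraries alone as controls, all 199 genes kept their direction and 44 of them passed, 13 higher and 31 lower. These libraries are part of the pooled comparison, so the direction was largely fixed in advance: 12622 of all 15029 genes tested kept theirs as well. The lower genes included 14 annotated lncRNAs of 89 (15.7%, against 12.5% of all genes tested), and the higher genes included none of 110.

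Taken singly, GapmeR1 changed 424 of 15194 genes (2.79%) and GapmeR2 changed 50 of 15166 (0.33%), with 205 (1.35%) and 44 (0.29%) of them lower. Both single comparisons used libraries of the pooled one and the same 5 controls, so a shared direction is largely fixed in advance: 10269 of the 15029 genes tested (68.3%) had the same direction in both, as did all 199 that were chosen on these libraries. Of the 110 higher genes, 95 passed with GapmeR1 and 5 with GapmeR2, and of the 89 lower genes, 70 and 21. The higher genes had a median log2 fold change of 0.28 with GapmeR1 and 0.21 with GapmeR2, and the lower genes of -0.23 and -0.20. When the 2 GapmeRs were compared directly, 77 of 15314 genes differed (0.503%), and 1 of the 199 was among them.

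The comparisons of each GapmeR with the shared controls both called 18 genes, all in the same direction, 14 lower and 4 higher. The smallest p-value of the whole comparison belonged to ALDH5A1 (ENSG00000112294, chr6:24494867-24537207), a mitochondrial dehydrogenase that completes the breakdown of the transmitter GABA. ALDH5A1 was at 329 and 300 CPM in medium and at 332, 294 and 314 CPM in NTC. It was at 263, 248 and 260 CPM with GapmeR1 and at 259, 250 and 257 CPM with GapmeR2. No GapmeR library reached any control, and the whole range within the GapmeR libraries was narrower than that of the controls. The log2 fold change was -0.29 (SE 0.03, adjusted p = 3.1e-07), that is 81.6% of the control level.

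The non-coding RNA ENSG00000227706 (chr6:67878316-67889339) behaved in the same manner. It was at 379 and 378 CPM in medium and at 379, 387 and 370 CPM in NTC, and at 315, 333 and 291 CPM with GapmeR1 and 300, 318 and 289 CPM with GapmeR2. The groups did not overlap, and the log2 fold change was -0.29 (SE 0.03, adjusted p = 3.14e-07). BLACE, a non-coding RNA named for its expression in B-cell acute lymphoblastic leukemia, had a log2 fold change of -0.32 (SE 0.04, adjusted p = 3.56e-07). Its controls were at 114 to 152 CPM and its GapmeR libraries at 89.6 to 118 CPM, so that they overlapped across days although each GapmeR library was below the controls of its own day. SHANK3, which encodes a postsynaptic scaffold, showed the same overlap, with controls at 108 to 156 CPM and GapmeR libraries at 89.0 to 122 CPM (log2 fold change -0.30, SE 0.04, adjusted p = 3.01e-06).

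CHL1, an adhesion molecule of the L1 family, was at 15 and 10.2 CPM in medium and at 20.7, 12 and 26.5 CPM in NTC. It was at 8.54, 8.81 and 17.3 CPM with GapmeR1 and at 10.4, 6.73 and 17.3 CPM with GapmeR2. CHL1 was highest in replicate 3 in treated and control cells alike, and the groups separated only within each day (log2 fold change -0.69, SE 0.09, adjusted p = 0.00020). RPS8P6, a processed pseudogene of a ribosomal protein gene that lies inside the CHL1 gene on the opposite strand (chr3:308714-309322), was at 6.94 to 8.71 CPM in the controls and at 4.33 to 6.22 CPM in the GapmeR libraries (log2 fold change -0.57, SE 0.09). Reads of a pseudogene can be assigned to its parent or to other copies, so its value is uncertain.

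DMD, which encodes dystrophin, was at 11.2 and 11.2 CPM in medium and at 10.4, 10.7 and 9.94 CPM in NTC. It was at 5.75, 6.90 and 5.96 CPM with GapmeR1 and at 8.94, 8.52 and 5.50 CPM with GapmeR2. The groups did not overlap, and the log2 fold change was -0.59 (SE 0.09, adjusted p = 0.000253). PECAM1, the adhesion molecule CD31, fell by 0.50 on the log2 scale (SE 0.09), with controls at 8.29 to 11.4 CPM and GapmeR libraries at 5.79 to 9.54 CPM. NEGR1, an adhesion molecule of the IgLON family, had a log2 fold change of -0.26, and the remaining members of the 14 (LINC01238, the kinesin light chain gene KLC3, the palmitoyltransferase gene ZDHHC19 and the channel subunit gene UNC79) lay between -0.43 and -0.25.

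**Figure D2:**
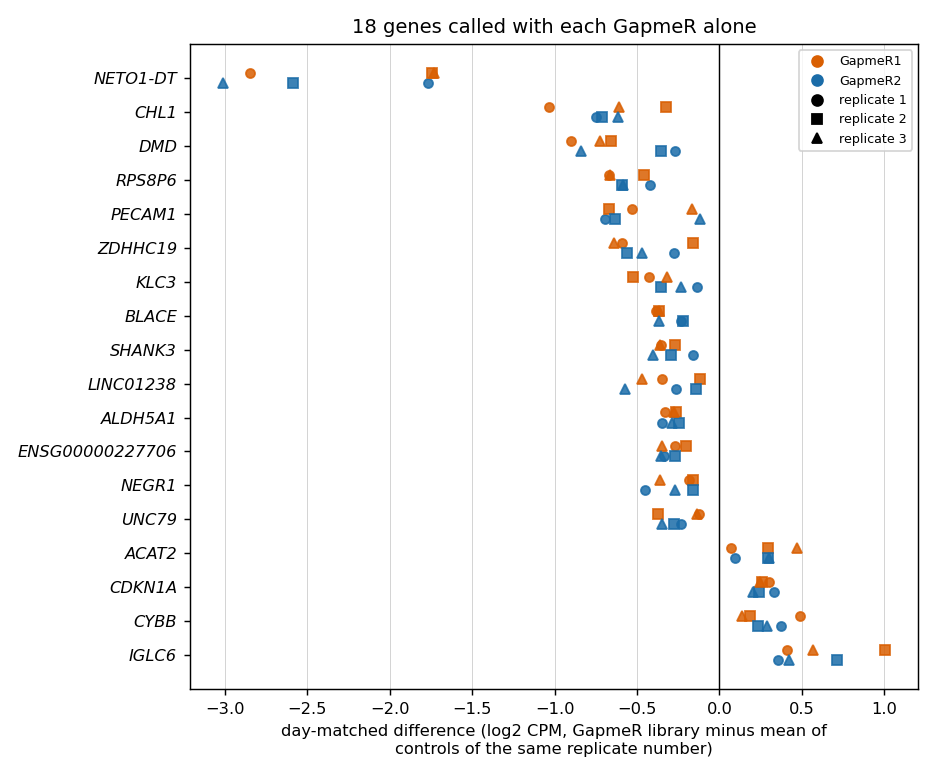
Day-matched differences of the 18 genes called with each GapmeR alone: log2 CPM of a GapmeR library minus the mean of the controls with the same replicate number, 6 points per gene. Colour gives the GapmeR and shape the replicate number. All 6 points of a gene lie on the same side of 0, and NETO1-DT has the largest differences, from about -3.0 to -1.7.

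The 4 genes called higher with each GapmeR were CYBB, CDKN1A, IGLC6 and ACAT2. CDKN1A, the cyclin-dependent kinase inhibitor p21, was at 97.4 and 98.0 CPM in medium and at 104, 116 and 121 CPM in NTC. It was at 124, 128 and 143 CPM with GapmeR1 and at 126, 126 and 139 CPM with GapmeR2. The groups did not overlap, the medium libraries were the lowest, and the log2 fold change was 0.26 (SE 0.04, adjusted p = 4.38e-05). CYBB, the catalytic subunit of the phagocyte NADPH oxidase, rose by 0.29 (SE 0.04, adjusted p = 3.01e-05), from 78.9 to 101 CPM in the controls to 89.4 to 117 CPM in the GapmeR libraries.

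IGLC6, an immunoglobulin lambda constant segment annotated as a pseudogene, was at 7.33 to 9.99 CPM in the controls and at 11.2 to 16.5 CPM in the GapmeR libraries, without overlap (log2 fold change 0.60, SE 0.09, adjusted p = 7.17e-05). A lambda variable segment, IGLV2-23, also rose with no overlap, from 4.05 to 6.06 CPM to 6.39 to 9.41 CPM (log2 fold change 0.52, SE 0.11). The segments of this locus are near copies of each other, so reads can be divided between them.

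The largest rises were in genes with few reads. EPHA4, an ephrin receptor, was at 0.325 and 0.328 CPM in medium and at 0.342, 0.314 and 0.601 CPM in NTC, and at 1.02, 0.705 and 1.20 CPM with GapmeR1 and 0.486, 0.894 and 0.818 CPM with GapmeR2. These are 5 to 11 counts per control library and 10 to 28 per GapmeR library, and 1 GapmeR2 library was below the NTC of replicate 3. The log2 fold change was 1.07 (SE 0.29, adjusted p = 0.046). GADD45G, a stress-inducible growth arrest gene, followed at 0.94 (SE 0.24, adjusted p = 0.0403).

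CXCL8, the chemokine interleukin-8, was at 0.821 to 5.41 CPM in the controls and at 1.18 to 7.59 CPM in the GapmeR libraries (log2 fold change 0.84, SE 0.16, adjusted p = 0.00257). Its level differed more between days than between treatments, with the highest controls and the highest GapmeR libraries both in replicate 3. The adaptor gene SH3BP2 (0.77), the tetraspanin gene CD82 (0.76) and the Notch ligand gene DLL1 (0.75) had the same shape, with replicate 3 highest in controls and in both GapmeRs. The nucleotide-sugar receptor gene P2RY14 (0.63), the GTPase genes RND1 (0.60) and RAB26 (0.57), the glypican gene GPC4 (0.54), the exchange factor gene PSD4 (0.54), MOXD1 (0.53) and the GTPase-activating gene TBC1D10C (0.52) completed the 15 largest, all at under 10 CPM apart from IGLC6. RND1 and GPC4 had no overlap between groups. Of the 110 higher genes, 56 had their highest control value in the NTC of replicate 3 (50.9%, against 30.2% of all genes tested). The same was true of 38 of the 89 lower genes (42.7%). This library was the lowest control for 23 of the higher genes (20.9%) and 17 of the lower genes (19.1%), against 30.0% of all genes tested.

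**Figure D3:**
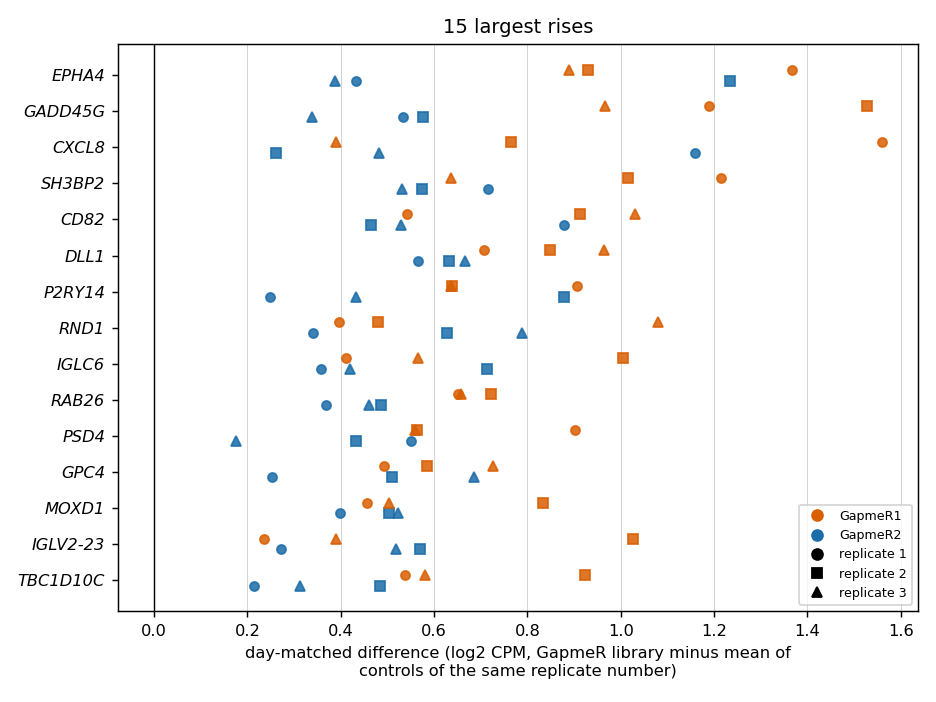
Day-matched differences of the 15 genes with the largest rises among those with one sign in all 6 libraries, in log2 CPM. Colour gives the GapmeR and shape the replicate number. The 6 points spread widely within a gene, for GADD45G from about 0.34 to 1.53, and GapmeR1 points tend to lie to the right of GapmeR2 points.

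Among the largest falls, ENSG00000274904, a non-coding RNA of low level, was at 0.601 to 0.766 CPM in the controls and at 0.188 to 0.486 CPM in the GapmeR libraries (log2 fold change -1.31, SE 0.31, adjusted p = 0.0176). The non-coding RNAs LINC01088 (-0.58), ENSG00000263489 (-0.42), MIR99AHG (-0.41) and ENSG00000249881 (-0.37) were also lower. TEC, a tyrosine kinase of B-cell receptor signalling, was at 21.0 and 24.3 CPM in medium, at 24.3, 23.1 and 23.2 CPM in NTC, at 17.2, 16.6 and 17.7 CPM with GapmeR1 and at 19.2, 18 and 19.1 CPM with GapmeR2. The groups did not overlap (log2 fold change -0.37, SE 0.06, adjusted p = 0.000301). DDIT4L, an inhibitor of mTOR signalling (-0.49), the lipid transporter gene ABCA4 (-0.44) and the transcription factor gene NPAS1 (-0.41) completed the 15 largest falls.

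The gene lists that follow cover pathways and cell identities that fit the line and the treatment. Cholesterol is made in the cell from acetyl-CoA through mevalonate and squalene, and the genes of the pathway are driven together by the transcription factor SREBP2. Of 22 measured cholesterol synthesis genes, 6 rose (27.3%, against 0.732% of all genes tested), none fell and 16 did not pass, and all 22 had a positive log2 fold change, with a median of 0.145 against 0.00 over all genes tested. Members of 1 pathway share their regulation and their cells, so these are not 22 independent observations. ACAT2, which joins acetyl-CoA units at the entry to the pathway, was at 154 and 149 CPM in medium and at 157, 162 and 105 CPM in NTC. It was at 164, 190 and 145 CPM with GapmeR1 and at 166, 191 and 129 CPM with GapmeR2. Replicate 3 was low in every group, and within each day both GapmeR libraries lay above the controls (log2 fold change 0.24, SE 0.04, adjusted p = 0.00227).

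The other risen members lie at several steps of the pathway. They were mevalonate kinase MVK (0.25, adjusted p = 0.00321), squalene epoxidase SQLE (0.16, adjusted p = 0.0127), lanosterol synthase LSS (0.16, adjusted p = 0.0135), the last-step reductase DHCR7 (0.18, adjusted p = 0.00704) and the sterol transporter STARD4 (0.20, adjusted p = 0.0432). With GapmeR1 alone 14 of the 22 passed and with GapmeR2 alone 1. Leaving out replicate 2, or the block, left no member that passed, and with NTC alone as the control 1 passed. Without medium replicate 1 or medium replicate 2, 3 passed in each case. The medians of the list in these settings lay between 0.127 and 0.144.

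**Figure D4:**
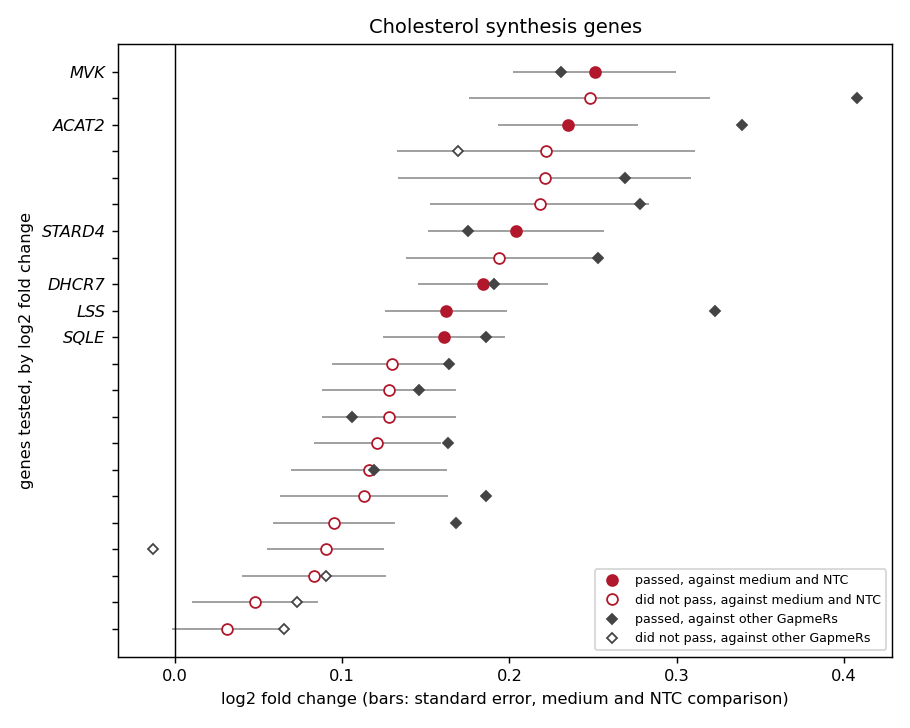
Log2 fold changes of the 22 cholesterol synthesis genes tested, for the pooled lnc-TIMM21-5 GapmeRs against medium and NTC (circles, with standard errors) and against the GapmeRs of the other lncRNAs (diamonds). Each row is a gene, and the 6 that passed against medium and NTC are named. Filled symbols passed at an adjusted p under 0.05. All circles lie above 0, with 6 filled, and 17 diamonds are filled.

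Genes of the cell cycle and DNA replication were measured as a marker of proliferation. Of 32 tested, 5 rose (15.6%, against 0.732% of all genes tested) and none fell: CDC6, which loads the replicative helicase (0.22, SE 0.03, adjusted p = 0.000245), the transcription factor E2F2 (0.18), the ribonucleotide reductase subunit RRM2 (0.13), the mitotic kinase AURKB (0.16) and cyclin CCNE2 (0.18). CDC6 was at 103 to 113 CPM in the controls and at 121 to 132 CPM in the GapmeR libraries, without overlap. The median of the list was 0.03, with 24 of 32 positive. Without the block none passed and 16 of 32 were positive, with a median of 0.0. The count was 1 without replicate 1, 2 without medium replicate 1, NTC replicate 3, GapmeR1 replicate 2 or GapmeR1 replicate 3, and 3 without medium replicate 2 or GapmeR1 replicate 1. KIF2C, a microtubule depolymerase, was the only one of 12 genes of the vincristine and microtubule list that passed (0.15, SE 0.04), from 89.4 to 94.0 CPM in the controls to 98.3 to 107 CPM with no overlap. That is 8.33% of the list, against 1.32% of all genes tested.

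Of 22 p53 target genes, 2 rose (9.09%, against 0.732% of all genes tested), and the median was 0.09. They were CDKN1A and the death receptor gene TNFRSF10B (0.26, adjusted p = 0.0232). Of 27 genes of the integrated stress and unfolded protein response, 3 rose (11.1%, against 0.732% of all genes tested). Each encodes a protein of the endoplasmic reticulum: the chaperone HSP90B1 (0.15, adjusted p = 0.0134), the disulfide isomerase PDIA4 (0.14, adjusted p = 0.0337) and SDF2L1 (0.36, adjusted p = 0.0104). In all 3 and in TNFRSF10B the NTC of replicate 3 was the highest control, for HSP90B1 at 803 CPM against 467 to 601 CPM in the other controls. Of the stress list 1 gene passed without medium replicate 1, NTC replicate 3 or GapmeR1 replicate 2, and none without the block. In the direct test, 3 members of this list were lower with GapmeR1 than with GapmeR2. PFKFB3, a regulator of glycolytic flux, was the only one of 23 glycolysis and hypoxia genes that passed (0.17, adjusted p = 0.0356). That is 4.35% of the list, against 1.32% of all genes tested.

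None of 11 B-cell precursor markers passed in the pooled edgeR test (4 had an unadjusted p under 0.05), and 10 of them had a negative log2 fold change. The recombination polymerase gene DNTT was at 879 CPM with the GapmeRs and 973 CPM in the controls (log2 fold change -0.12, adjusted p = 0.0647), below its day's controls in all 6 libraries. DESeq2 called DNTT lower (adjusted p = 0.0281), as did edgeR with GapmeR1 alone (adjusted p = 0.0092). None of 19 B-lineage and leukemia transcription factors passed in the pooled edgeR test, with BACH2 at -0.15 and SOX4 at 0.11. With GapmeR1 alone 2 of the 19 passed as higher, and with GapmeR2 alone 1 passed as lower. None of 31 interferon-stimulated genes passed, with IFI44 at 0.20 (adjusted p = 0.0669) and IFIT2 at 0.23 (adjusted p = 0.068). None of 16 nucleic acid sensors passed, with STING1 at 0.34 (adjusted p = 0.0565). The 15 genes of oligonucleotide handling, RNASEH1 (0.07) included, and the 31 of transcription, splicing and mRNA processing held no called gene. At an unadjusted p under 0.05 the last 5 of these lists held 6, 5, 2, 1 and 2 genes in the order given, and DESeq2 called no member of them. The 6 lists had medians between -0.046 and 0.041.

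**Figure D5:**
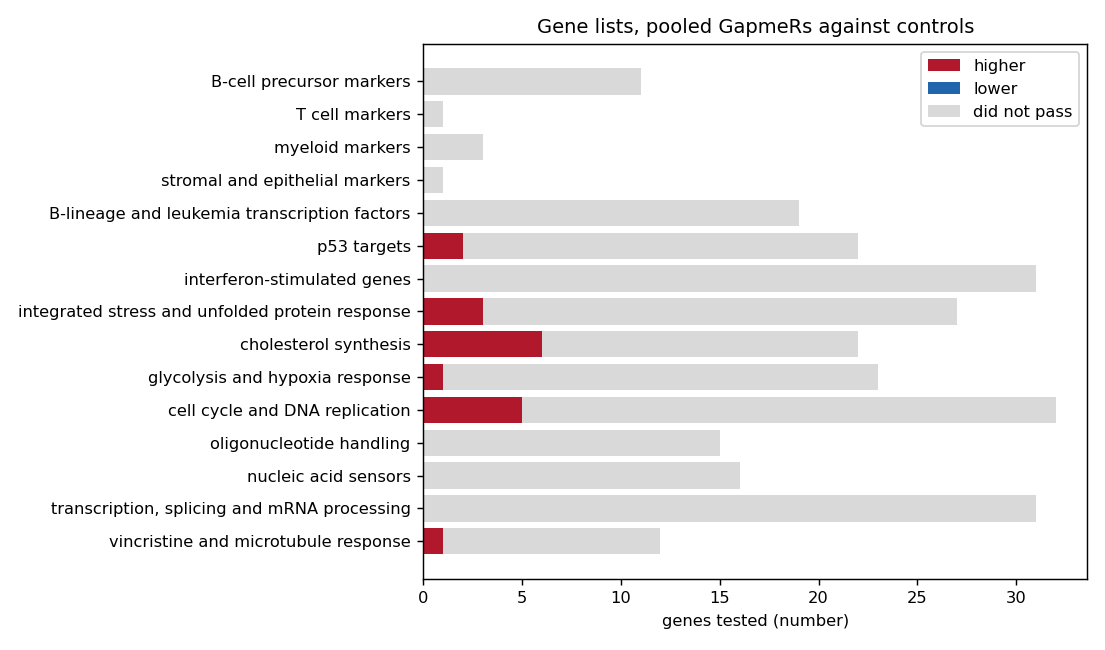
Number of genes tested in each list, split into those higher, lower and not passing in the pooled comparison. Cholesterol synthesis (6 of 22) and cell cycle and DNA replication (5 of 32) have the most called genes, all higher, and no list has a lower gene.

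The 199 genes were next read in a comparison that used no control: the mean of both lnc-TIMM21-5 groups against the mean of the 6 groups given GapmeRs against the other 3 lncRNAs. It was fitted on all 27 libraries, called 1845 of 16268 genes (11.3%) and contained the same 6 lnc-TIMM21-5 libraries, so the comparisons are not independent. Of the 110 higher genes, 26 were higher here as well, 11 were lower and 73 did not pass. Of the 89 lower genes, 15 were lower, 23 were higher and 51 did not pass.

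Some genes therefore differed from the controls in one direction and from other GapmeRs in the opposite direction. NETO1-DT was lower in both comparisons (-2.55 and -2.48). Its neighbour NETO1 did not pass against the controls (0.03) and was lower than with the other GapmeRs (-0.15, edgeR adjusted p = 0.0251). CHL1 (-0.69 and 0.36), DMD (-0.59 and 0.34) and RPS8P6 (-0.57 and 0.27) were below the controls and above the cells given other GapmeRs. ALDH5A1 did not pass against the other GapmeRs (0.04, SE 0.02, adjusted p = 0.36), and CYBB was lower than with them (-0.22) although higher than in the controls (0.29). The lambda segments IGLC6 (0.07, edgeR adjusted p = 0.530) and IGLV2-23 (-0.05, edgeR adjusted p = 0.717) did not pass against the other GapmeRs either. The paper lists both segments among the rises after knockdown of lnc-NKX2-3-1, 1 of the other lncRNAs. The called genes with the smallest adjusted p against other GapmeRs were WWOX (-0.22 and 1.24), TENM4 (-0.17 and 0.63) and TBC1D10C (0.52 and -0.91). The cholesterol list had 17 genes higher than with the other GapmeRs and none lower, with a median of 0.17, and the cell cycle list had none higher and 3 lower.

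Sites with few mismatches in the sense strand of gene bodies were then counted, because both GapmeRs are short and rich in A and T. With up to 2 mismatches, GapmeR1 had a site in 702 of the 15029 genes tested (4.67%), in 15 of the 89 lower genes (16.9%) and in 3 of the 110 higher genes (2.73%). GapmeR2 had one in 444 of all genes (2.95%), in 10 of the lower (11.2%) and in 3 of the higher (2.73%). The NTC had one in 137 of all genes (0.912%) and in 1 of the lower genes (1.12%). The lower genes were also long, with a median span of 117 kb against 26.1 kb for all genes and 23.4 kb for the higher genes, and a longer gene holds more sites of any kind. The part of sites and of length in these falls was not tested.

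With at most 1 mismatch, the lower genes held NETO1-DT, which matched both GapmeRs exactly, and PARD3, a cell polarity scaffold, which matched GapmeR2 with 1 mismatch in an intron. PARD3 was at 105 to 115 CPM in the controls, at 98.2 to 106 CPM with GapmeR1 and at 91.3 to 92.6 CPM with GapmeR2, so GapmeR2 libraries were lowest on every day (pooled log2 fold change -0.18, adjusted p = 0.0104). In the direct edgeR test of GapmeR1 against GapmeR2, PARD3 did not pass (log2 fold change 0.16, adjusted p = 0.122). DMD, among the largest falls, had sites with 2 mismatches only.

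Sites of this kind were also counted for each GapmeR alone. Of 37 tested genes with a GapmeR1 site of at most 1 mismatch, 12 were lower with GapmeR1 (32.4%, against 1.35% of all genes tested) and none higher. Of 18 with such a GapmeR2 site, 6 were lower with GapmeR2 (33.3%, against 0.29%) and none higher. NETO1-DT, the intended target, is counted in both, which leaves 11 of 36 and 5 of 17 other genes. DNM3, a dynamin gene, also matched GapmeR1 exactly, in an intron: it was at 1.75 to 3.77 CPM in the controls, at 1.40 to 1.84 CPM with GapmeR1 and at 1.93 to 2.59 CPM with GapmeR2 (GapmeR1 against controls -0.74, adjusted p = 0.0249). The sites of 4 genes with 1 mismatch, chosen after their values were seen, are shown as the RNA reads 5′ to 3′ (hg38), with the mismatched base in capitals.
ZC3H12B, GapmeR1, intron, chrX:65082230-65082245, plus strand: Aaccaaatgcaaaatt
LY75, GapmeR1, intron, chr2:159869861-159869876, minus strand: taAcaaatgcaaaatt
MYH10, GapmeR2, exon, chr17:8573769-8573784, minus strand: Tcaaaattaaagtgac
PARD3, GapmeR2, intron, chr10:34372066-34372081, minus strand: gGaaaattaaagtgac
ZC3H12B was at 5.47 to 7.26 CPM in the controls and at 6.41 to 6.82 CPM with GapmeR2, but at 0.172 to 0.302 CPM with GapmeR1 (GapmeR1 against controls -4.87, SE 0.237). MYH10, a non-muscle myosin heavy chain, was at 447 to 541 CPM in the controls and at 426 to 514 CPM with GapmeR1, but at 230 to 279 CPM with GapmeR2 (GapmeR2 against controls -0.90, SE 0.0435). Neither gene passed in the pooled comparison. Both differed between the GapmeRs on every day, without overlap.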

How the data were processed

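RNA of REH cells was sequenced by the authors (per the labels after ribosomal RNA depletion, per the methods after poly-A selection) and aligned with STAR to hg38. The deposited tables hold raw read counts per gene, and the sense-strand count column was used as deposited (95.18 to 95.41% of stranded reads, 60619 genes, 56434 of them named from GENCODE release 44). edgeR 4.0.16 (R 4.3.3, TMM, filter of 10 counts and 15 in total, target kept, robust quasi-likelihood F test, Benjamini-Hochberg) compared both GapmeRs pooled, each alone and 1 with the other, with replicate number as a block. A fit of all 27 libraries compared them with the other GapmeRs. CPM values are TMM-scaled, and differences use log2 CPM with a prior count of 2. The SE is the log2 fold change over the root of F. The fit was tested on simulated data with planted shifts larger than most of those reported here, placed only in genes with many reads. The simulation therefore did not cover small shifts or genes with few reads.

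The block rests on replicate numbers from the labels and on the methods, which place replicates on different days. Libraries with the same number deviated from their group means together (mean r = 0.326, lowest 0.084, 15 pairs). Those with different numbers had a mean r of -0.162 (30 pairs). Deviations within a group cancel out by construction, so this negative value was partly fixed in advance. The pairs also share libraries and are not independent. Within-group pairs differed by more than sampling noise. All libraries are cultures of 1 line, so p-values measure the spread between these cultures.

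Named genes were the target, its neighbours, the 15 largest rises and falls among changed genes with one sign, genes called with each GapmeR, up to 4 members per list by p, the 3 smallest adjusted p against other GapmeRs, and genes of these sets with sites. ZNF407, LSS, STARD4, CCNE2, SELENOK, MYOCD, SETD1B, PARD3, DNM3, LY75, MON2, ZC3H12B and MYH10 were named after their values were seen. The comparison, its members and the 16 gene lists were chosen with earlier results of these data known. GapmeR sequences came from the study's supplement and were searched in hg38 with up to 2 mismatches. Alternatives were no block, DESeq2 1.42.0, RLE scaling, no filter, 10 counts in every sample, counts of both strands, NTC only, 1 fit of all libraries, and leaving out each library or replicate number.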

Additional observations from a re-analysis of the deposited data

Results flagged for a closer look

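For 10 named genes, 1 library stood apart from the rest of its group (Dixon's test at the 95% level, which chance alone passes in about 1 of 20 groups). In 8 of them it was the NTC of replicate 3, the only control of its day. It was the highest of the 5 controls for SHANK3 (156 CPM), SDF2L1 (19.5 CPM), TNFRSF10B (57.5 CPM), PDIA4 (175 CPM), PFKFB3 (80.4 CPM) and EPHA4 (0.601 CPM), and the lowest for ACAT2 (105 CPM) and AURKB (61.8 CPM). For DHCR7 the NTC of replicate 2 was the highest control (167 CPM). For DDIT4L the GapmeR2 library of replicate 1 was the highest GapmeR library (9.42 CPM). The number of groups tested is not given here, so these 10 genes were not compared with the number that chance would give. The direct test between both lnc-TIMM21-5 GapmeRs found 77 genes that responded differently to them.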

How the results depend on the processing

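All 199 genes kept their direction in every alternative in which they were tested, and none of the 55 changed genes that are named beside the target reversed. The alternatives refit the same libraries or parts of them, so a kept direction was largely fixed in advance and adds no support. The replicate block decided the count: without it 1 gene passed, against 12 with GapmeR1, 9 with GapmeR2, 12 between the GapmeRs and 407 against other GapmeRs. With no low-count filter the pooled count was 334 (GapmeR2 102, between GapmeRs 130). With NTC only it was 56, of which 54 had one sign on all days. In 1 fit of all libraries it was 426, with 334 of one sign, and GapmeR2 gave 95. DESeq2 gave 198 for GapmeR1 and 34 between the GapmeRs, and no adjusted p for the target (-2.59). Leaving out a library or a replicate number gave 74 to 289 pooled genes, 74 to 277 of one sign, 90 to 447 with GapmeR1, 21 to 121 with GapmeR2, 44 to 123 between the GapmeRs, 789 to 1331 against other GapmeRs and -2.78 to -2.41 for the target. The pooled count was 84 without medium replicate 1, 129 without medium replicate 2, 98 without NTC replicate 3, 99 and 109 without GapmeR1 replicates 2 and 3, and 74, 101 and 92 without replicates 1, 2 and 3. The causes were not tested. Of 55 changed named genes other than the target, 55 no longer passed without the block, 30 with NTC only, 4 with DESeq2 and 3 in the fit of all libraries. DESeq2 gave EPHA4, GADD45G and ENSG00000274904 no adjusted p, so these 3 are not counted as lost. Genes with few reads, such as the target with 1 to 10 counts per GapmeR library, are measured with limited precision.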
